A study of Mus musculus with 2 samples.

Results

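The miRNAs encoded among the Hox genes were examined in resting macrophages. The members were taken by name from the table of miRNA counts: both arms of miR-10a (mmu-miR-10a-5p and mmu-miR-10a-3p), both arms of miR-10b (mmu-miR-10b-5p and mmu-miR-10b-3p), mmu-miR-196a-5p, mmu-miR-196b-5p and mmu-miR-615-3p. These are 7 of the 1915 mature miRNA names listed, and 6 of them had at least 1 count, as did 1013 names in all. The data are 2 small RNA sequencing libraries from unstimulated bone marrow-derived macrophages (BMDMs) of wild type C57/BL6 mice 8 weeks of age. BMDMs are macrophages grown from marrow progenitors, here in medium conditioned by L cells with the adherent cells kept, and both libraries were labelled as biological replicates of this single condition. Replicate 1 held 7322969 miRNA counts and replicate 2 held 8094314. Levels are given in RpM, the count scaled to 1000000 miRNA counts of the library, or as a percent of the library. The floor was set by convention at 3 counts, which is 0.410 RpM in replicate 1 and 0.371 RpM in replicate 2. The upper 95% Wilson limit of a name with 0 counts lies above it, at 0.525 and 0.475 RpM. These limits, all 95% Wilson intervals and all p-values given cover counting error only. With a single condition there was no comparison between groups.

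Hox genes encode the transcription factors that set position along the body axis, and they also act in blood progenitors, where Hoxa9 and Hoxa10 are active and decline as cells mature. Each Hox cluster also carries miRNA genes: miR-10 hairpins lie near the Hox4 genes and miR-196 hairpins near the Hox9 genes, and several Hox mRNAs are targets of these miRNAs, with Hoxb8 cut by miR-196 as the classic case. A hairpin gives a 5p and a 3p arm, of which one is usually kept as the guide strand while the other is degraded, and the guide recognises its targets mainly through its seed, bases 2 to 8. miR-10a is known in endothelial and immune cells as a brake on NF-κB signalling, and miR-196b as a miRNA of blood progenitors.

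The mature sequences show which members can be expected to share targets and which could share reads. All 7 members were found in RefSeq (GRCm38.p6), and the seed is in capitals.
miR-10a-5p: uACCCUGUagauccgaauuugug
miR-10b-5p: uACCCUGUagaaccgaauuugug
miR-10a-3p: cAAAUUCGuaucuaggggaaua
miR-10b-3p: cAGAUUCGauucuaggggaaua
miR-196a-5p: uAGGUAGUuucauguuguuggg
miR-196b-5p: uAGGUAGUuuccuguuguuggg
miR-615-3p: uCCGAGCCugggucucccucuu

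The 5p arms of miR-10a and miR-10b have the same seed and differ by 1 of 23 bases, U12A, written as the miR-10a base, the position from the 5′ end and the miR-10b base. No other name in the table with a sequence in RefSeq has this seed. The 3p arms differ by 3 of 22 bases, A3G, U9A and A10U, and the first of these lies in the seed, so the 3p arms have different seeds. The 5p arms of miR-196a and miR-196b also share their seed, and they differ by 1 of 22 bases, A12C. miR-615-3p shares its seed with no other name in the table that has a sequence.

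The hairpins lie in all 4 Hox clusters, and 1 mature sequence comes from a pair of them. Positions are those of the GENCODE annotation of GRCm38. Mir10a lies in HoxB (chromosome 11, plus strand, 96317165 to 96317274), between Hoxb5 and Hoxb4. It overlaps no other annotated gene, and Hoxb4 begins 992 bases further on. Mir10b lies in HoxD (chromosome 2, plus strand, 74726070 to 74726137), in an intron of 2 of the 3 annotated transcripts of Hoxd4 and of 1 of the 6 of Hoxd3. Mir196b lies in HoxA (chromosome 6, minus strand, 52230081 to 52230165), within an exon without coding sequence of 2 of the 5 transcripts of Hoxa9 and within an intron of 1. Mir615 lies in HoxC (chromosome 15, plus strand, 103014910 to 103015001), in an intron of both transcripts of Hoxc5. The same mature miR-196a-5p is made from Mir196a-1 in HoxB (chromosome 11, plus strand, 96265164 to 96265265, between Hoxb13 and Hoxb9 and outside other genes) and from Mir196a-2 in HoxC (chromosome 15, plus strand, 102973350 to 102973434, between Hoxc10 and Hoxc9 and in an intron of 1 of the 2 transcripts of Hoxc5), so its count cannot be assigned to either cluster.

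**Figure D1:**
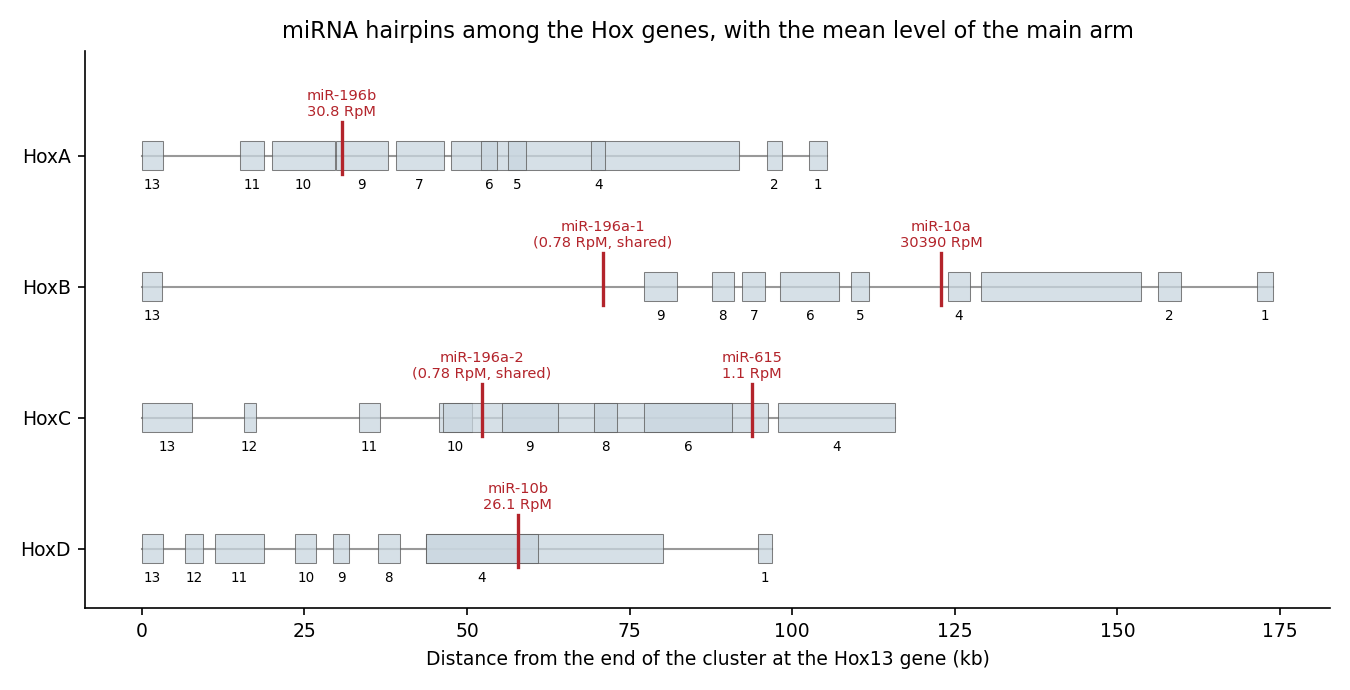
Map of the 4 Hox clusters to scale, drawn from the Hox13 gene (x axis, distance in kb). Grey boxes are annotated Hox genes with their paralogue number (boxes longer than 20 kb are not numbered), and red lines are miRNA hairpins with the mean RpM of the main arm over both libraries. miR-10a in HoxB stood at 30390 RpM, the hairpins of the other clusters at 30.8 RpM or less, and the 0.78 RpM of miR-196a-5p is shared by both of its hairpins.

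The labelled cell type was checked against miRNAs known to mark cell types. Of the 6 miRNAs taken as myeloid markers (miR-223-3p, miR-142a-5p, miR-142a-3p, miR-155-5p, miR-146a-5p and miR-511-3p), all 6 had counts, and together they held 7.72% of replicate 1 and 9.74% of replicate 2, with miR-146a-5p the most abundant by mean at 27603 and 59649 RpM and miR-142a-5p above it in replicate 1 at 37031 RpM. Markers of other cells were low. The 5 fibroblast and stromal markers all had counts and summed to 238.8 and 161.0 RpM, led by miR-143-3p at 187.1 and 117.2 RpM. The 6 epithelial markers all had counts and summed to 152.9 and 166.7 RpM, led by miR-200b-3p at 67.7 and 102.2 RpM. Both arms of miR-126a, a marker of endothelial cells and megakaryocytes, summed to 62.5 and 46.2 RpM, led by miR-126a-5p at 48.5 and 35.3 RpM. Both arms of miR-150, a lymphocyte marker, summed to 28.0 and 10.9 RpM, led by miR-150-5p at 27.6 and 10.9 RpM. The 3 erythroid markers all had counts and summed to 1.502 and 1.48 RpM, led by miR-451a at 0.956 and 0.988 RpM, and the 2 neuronal markers to 1.64 and 1.36 RpM, all of it miR-9-5p, with miR-124-3p at 0. The liver marker miR-122-5p and the muscle markers miR-1a-3p and miR-206-3p had no counts, and the muscle marker miR-133a-3p had 6 counts, all in replicate 2. The lower Hox cluster miRNAs thus stood in the range of these minor marker lists, while miR-10a-5p stood in the range of the most abundant myeloid markers. In bulk RNA, fewer cells of a type and less RNA per cell cannot be told apart, and whether other cells contributed to the lower members was not tested.

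miR-10a-5p, the 5p arm of the HoxB hairpin, was one of the most abundant miRNAs of these macrophages. Its 241466 counts in replicate 1 were 3.30% of the library (95% interval 3.28 to 3.31), and its 225074 counts in replicate 2 were 2.78% (95% interval 2.77 to 2.79). Only 6 names had a higher mean share, the highest being miR-21a-5p with 26.8%. The intervals of the libraries do not overlap, so the spread between libraries and not the depth limits the precision of its mean of 3.04% ± 0.365 (SD, n = 2).

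Every other member was lower by about 3 orders of magnitude or more. miR-196b-5p, the HoxA member, held 235 and 239 counts, or 32.1 and 29.5 RpM (mean 30.8 ± 1.81, SD, n = 2), which placed it at rank 233 by mean share. Its levels in both libraries lay within each other's counting intervals. miR-10b-5p, the HoxD member, held 267 counts in replicate 1 and 127 in replicate 2, or 36.5 and 15.7 RpM (mean 26.1 ± 14.7, SD, n = 2). It was the member with the widest spread, 2.32-fold between the libraries. miR-10a-3p, the other arm of the HoxB hairpin, held 175 and 152 counts, or 23.9 and 18.8 RpM (mean 21.3 ± 3.62, SD, n = 2).

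The last members had 10 counts or fewer in each library. miR-615-3p held 7 and 10 counts, or 0.956 and 1.24 RpM (mean 1.10 ± 0.198, SD, n = 2), and miR-196a-5p held 6 counts in each library, or 0.819 and 0.741 RpM (mean 0.780 ± 0.0552, SD, n = 2). Counting error at this depth is large, with an interval for miR-196a-5p in replicate 1 from 0.376 to 1.79 RpM. miR-10b-3p had 0 counts in both libraries. At these counts a difference between miR-615-3p and miR-196a-5p was not detectable.

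**Figure D2:**
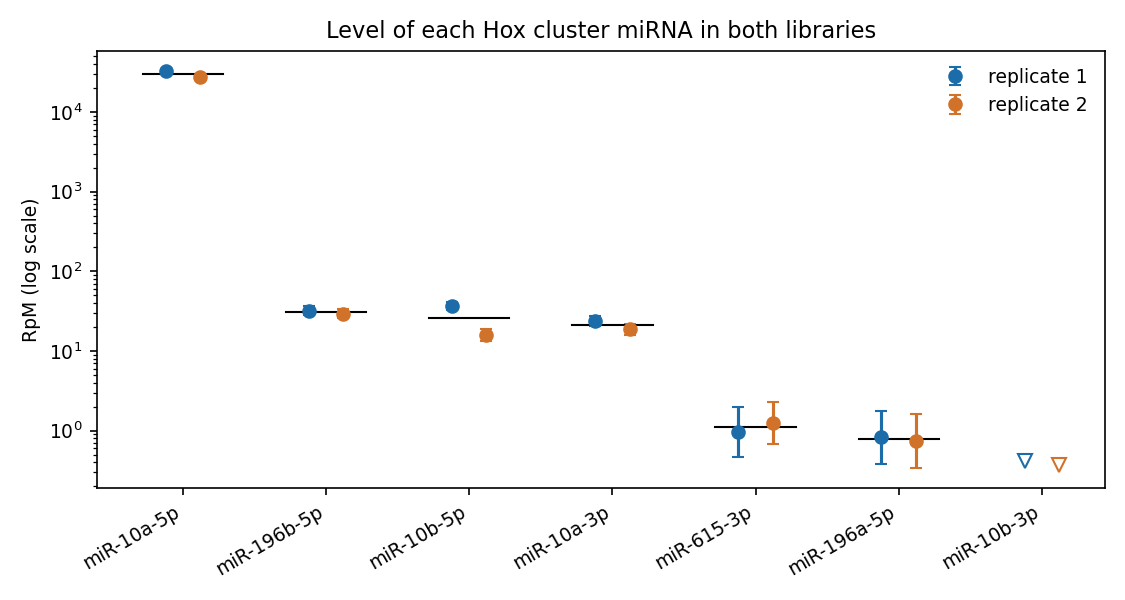
Level of each Hox cluster miRNA in RpM on a log axis, with 1 point for each library, 95% Wilson intervals as bars and the mean of both libraries as a black line. Open triangles for miR-10b-3p, which had 0 counts, mark the floor of 3 counts. miR-10a-5p stands alone near 30390 RpM, miR-196b-5p, miR-10b-5p and miR-10a-3p lie together between 15.7 and 36.5 RpM, and miR-615-3p and miR-196a-5p lie near 1 RpM.

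The order of the members was tested between neighbours within each library with exact two-sided binomial tests of their counts, 12 in all, with Benjamini-Hochberg adjustment. miR-10a-5p exceeded miR-196b-5p 1028-fold in replicate 1 and 942-fold in replicate 2, with a p too small for the computation to represent in both. Below it, the order of 3 members was not the same in both libraries. miR-196b-5p was 0.880 of miR-10b-5p in replicate 1 (exact adjusted p = 0.20) and 1.88-fold higher in replicate 2 (exact adjusted p = 1.2e-08). miR-10b-5p was 1.53-fold higher than miR-10a-3p in replicate 1 (exact adjusted p = 2.8e-05) and 0.836 of it in replicate 2 (exact adjusted p = 0.20). Both changes of order follow the level of miR-10b-5p, which was the highest of the 3 in replicate 1 and the lowest in replicate 2. miR-10a-3p exceeded miR-615-3p 25.0-fold and 15.2-fold (exact adjusted p = 1.6e-42 and 2.8e-33). Between miR-615-3p and miR-196a-5p no difference passed the test (exact adjusted p = 1.0 and 0.50). miR-196a-5p had 6 counts against 0 of miR-10b-3p in each library, which is at least 2.0-fold against the floor of 3 counts per library. This pair passed the test narrowly (exact adjusted p = 0.047 in each library), and their order is not read from so few counts.

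By cluster, the members' counts came almost wholly from HoxB. The HoxB hairpin miR-10a gave 99.8% ± 0.0307 (SD, n = 2) of all counts of the 7 members, at 32998 RpM in replicate 1 and 27825 RpM in replicate 2. HoxA, through miR-196b-5p, gave 0.0970% and 0.106% of the members' counts. HoxD, through miR-10b-5p, gave 0.1103% and 0.0563%. HoxC gave 0.00289% and 0.00443% through miR-615-3p. The order of HoxA and HoxD was not the same in both libraries, and passed the test above in replicate 2 only, while HoxC was the lowest in both. Assigning all of miR-196a-5p to HoxC would raise that cluster from 1.10 to 1.88 RpM, which leaves it the lowest, and assigning it to HoxB would raise that cluster from 30411 to 30412 RpM. The members other than miR-10a-5p summed to 690 counts in replicate 1 and to 534 in replicate 2, so miR-10a-5p exceeded all of them together 350.0-fold and 421-fold.

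The contrast between the miR-10 copies was examined further, because their 5p arms differ by U12A alone and reads of one could be counted under the other. miR-10a-5p exceeded miR-10b-5p 904-fold in replicate 1 and 1772-fold in replicate 2 (mean 1338 ± 614, SD, n = 2). In other words, the counts of miR-10b-5p were 0.111% and 0.0564% of those of miR-10a-5p. For comparison, all pairs of names in the table were taken whose RefSeq sequences have the same length and differ by 1 base, and whose higher name held at least 10000 counts summed. There were 10 such pairs. In the other 9, the lower name held from 5.18% to 31.2% of the counts of the higher as a mean of both libraries, and from 4.66% to 36.4% in single libraries, with miR-30a-5p against miR-30e-5p at the low end and let-7a-5p against let-7f-5p at the high end. The miR-10 pair had the lowest mean of the 10, 62.0-fold below the next. This sets a limit on exchange of reads in one direction: if all reads named miR-10b-5p had been reads of miR-10a-5p with a changed base, they would be the 0.111% and 0.0564% given above. What part of them this is was not tested. The comparison was chosen after the counts of the members were seen.

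**Figure D3:**
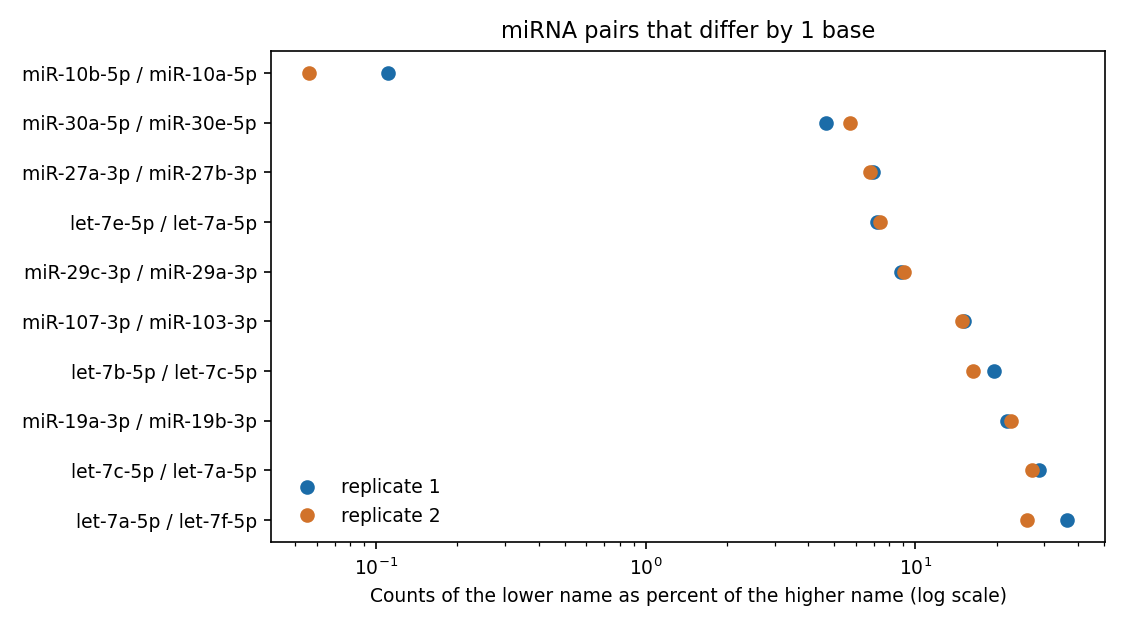
Pairs of mature miRNAs of equal length that differ by 1 base, with the counts of the lower name as a percent of the higher name on a log axis and 1 point for each library. The miR-10 pair lies at 0.111% and 0.0564%, and the other 9 pairs have means of 5.18% or more.

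The 3p arms gave no second measure of this contrast. miR-10a-3p held 175 and 152 counts against 0 for miR-10b-3p, so miR-10a-3p was at least 58.3-fold and 50.7-fold higher, against a floor of 3 counts per library. If miR-10b were at the same percent of miR-10a as in the 5p arms, 0.194 and 0.0858 counts of miR-10b-3p would be seen, which is under 1 count in each library. The absence of miR-10b-3p was therefore not informative at this depth.

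The copies of miR-196 also differed, in the same way in both libraries. miR-196b-5p exceeded miR-196a-5p 39.2-fold in replicate 1 and 39.8-fold in replicate 2 (mean 39.5 ± 0.471, SD, n = 2), although miR-196a has a pair of hairpins and miR-196b has 1. The closeness of these ratios rests on 6 counts of miR-196a-5p in each library.

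For arm use, the hairpins of miR-10a, miR-10b and miR-196b are shown with both mature arms in capitals, the 5p arm first (RefSeq, GRCm38.p6, plus strand of chromosome 11, plus strand of chromosome 2 and minus strand of chromosome 6, at the positions given above).
Mir10a: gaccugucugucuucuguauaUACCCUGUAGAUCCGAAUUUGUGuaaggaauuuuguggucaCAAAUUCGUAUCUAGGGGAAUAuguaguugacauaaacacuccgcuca
Mir10b: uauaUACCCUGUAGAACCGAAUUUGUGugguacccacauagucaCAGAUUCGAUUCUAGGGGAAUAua
Mir196b: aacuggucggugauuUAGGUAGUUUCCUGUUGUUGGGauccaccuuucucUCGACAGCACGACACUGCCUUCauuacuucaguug

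miR-10a was used almost wholly through its 5p arm. The 5p arm made up 99.93% of the counts of both arms in each library, with intervals from 99.916 to 99.938% in replicate 1 and from 99.921 to 99.942% in replicate 2, and it exceeded the 3p arm 1380-fold and 1481-fold (mean 1430 ± 71.4, SD, n = 2). No difference in arm share between the libraries passed Fisher's exact test (two-sided, p = 0.54, adjusted p = 1.0 over 7 tests of arm use). The 3p counts of 175 and 152 limit the precision of this comparison.

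The other hairpins leaned the same way where depth allowed a statement, apart from miR-615. miR-10b gave 267 and 127 counts of the 5p arm and 0 of the 3p arm, where the floor is 1.12% and 2.36% of the 5p count. The 95% intervals of its 5p share began at 98.6% and 97.1%. miR-196b gave 235 and 239 counts of the 5p arm against 1 and 2 of the 3p arm, a 5p share of 99.6% (95% interval 97.6 to 99.9) and 99.2% (95% interval 97.0 to 99.8). miR-196a gave 6 counts of the 5p arm in each library, none of miR-196a-1-3p and 1 count of miR-196a-2-3p, in replicate 2. miR-615 was seen only through its 3p arm, with 7 and 10 counts against 0 of miR-615-5p. For miR-10b and miR-615 the other arm had 0 counts in both libraries, so Fisher's exact test of arm share between the libraries could not pass, and with 0 counts of miR-10b-3p neither could that of miR-10a against miR-10b within a library. For miR-196b and miR-196a, with 0 to 2 counts of the 3p arms, a difference between the libraries was not detectable at this depth.

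Against other hairpins with at least 100 counts, the arm use of miR-10a was among the most one-sided. Arms were paired where their names differ only in 5p and 3p, which leaves out hairpins such as miR-26a whose arms on 1 side carry a locus number. Of the 176 hairpins paired in this way with at least 100 counts over both arms and libraries, 98 favoured the 5p arm, and the median share of the favoured arm was 97.2%. In 15 of the 176, with miR-10b and its 0 counts of the 3p arm among them, the favoured arm had a higher share than in miR-10a. With the locus-numbered arms summed by name, an alternative chosen after seeing the data, these were 16 of 199. With no minimum of counts they were 190 of 501, where hairpins of few counts have all of them on 1 arm. Among the 16 of the 176 with at least 100000 counts, miR-146a alone was more one-sided, at 99.96%, as it was among 21 with the locus-numbered arms included, where miR-26a came closest below miR-10a at 99.926%. At the other end of the 16, miR-142a gave 87.5% of its counts from its 5p arm.

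**Figure D4:**
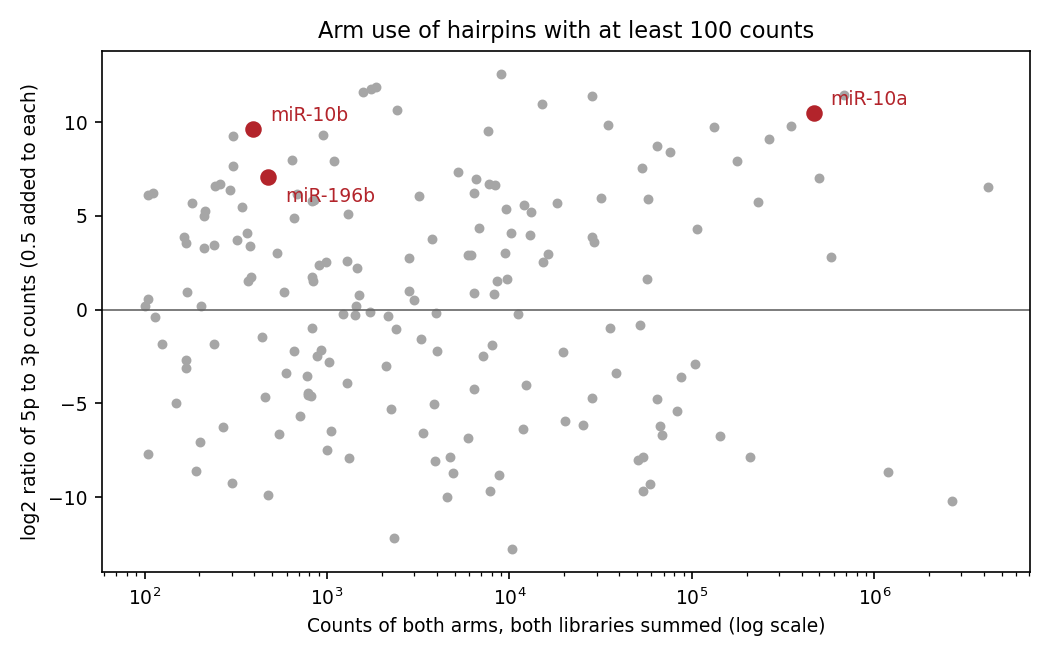
Arm use of the 176 hairpins whose arms were paired by name, with at least 100 counts: counts of both arms summed over both libraries (x axis, log scale) against the log2 ratio of 5p to 3p counts, with 0.5 added to each count for drawing. The Hox hairpins drawn, miR-10a, miR-10b and miR-196b, are in red on the 5p side, while miR-615, with all of its 17 counts on the 3p arm, and miR-196a are under the minimum and are not drawn. miR-10a lies near the upper right edge with 5p counts 1430-fold above 3p counts on average.

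The libraries were compared by Fisher's exact test of each miRNA against the rest of its library, over the 588 names with at least 10 counts summed, with Benjamini-Hochberg adjustment at 0.05. This sets one library against the other, not a condition against another. Of the 588, 260 were called, 44.2%, with 81 higher and 179 lower in replicate 2. The split was 122 to 137 under TMM scaling and 124 to 127 under that of DESeq2. Over all 588 names the log2 ratio (replicate 2 over replicate 1) had a median of -0.16, and of -0.03 with TMM, so the members' values are read against that shift.

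Of the 7 members, 6 could be tested and 2 were called, a share that is not above that of all names. The members that were not called held from 12 to 474 counts summed. miR-10b-5p had the largest difference, with a log2 ratio of -1.22 (adjusted p = 3.7e-15, Fisher's exact test). Of the 101 other names with a mean count within 2-fold of its own, 6 differed by as much or more, and their median absolute log2 ratio was 0.33. miR-10a-5p had a log2 ratio of -0.25 (adjusted p too small to represent, Fisher's exact test), and of -0.12 with TMM. Of the 7 other names within 2-fold of its count, 3 differed by as much or more. The other 4 did not pass the test: miR-10a-3p at -0.35 (adjusted p = 0.068), miR-196b-5p at -0.12 (adjusted p = 0.55), miR-196a-5p at -0.14 (adjusted p = 1.0) and miR-615-3p at 0.37 (adjusted p = 0.78), all by Fisher's exact test. Each scaling moves all names by the same log2 amount, which puts miR-196b-5p at 0.01 with TMM and 0.02 with DESeq2 size factors, so no direction is given for it.

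**Figure D5:**
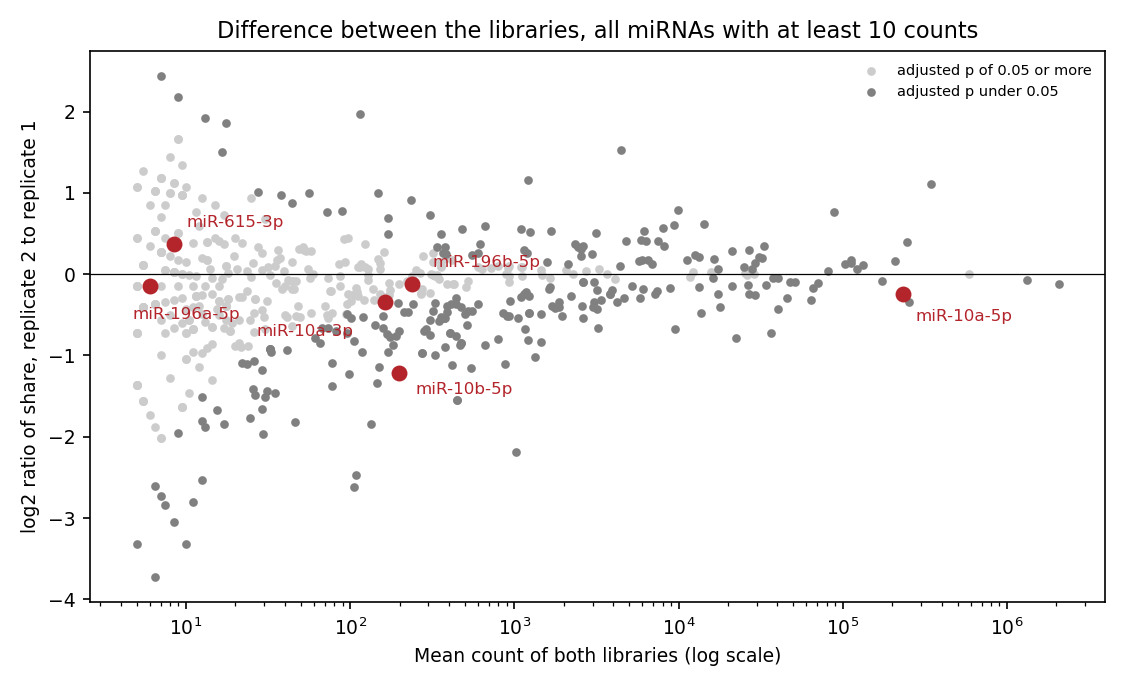
Mean count of both libraries (x axis, log scale) against the log2 ratio of the share in replicate 2 to that in replicate 1 for the 588 names tested, dark grey where the adjusted p was under 0.05. Members are in red: miR-10b-5p lies at -1.22, below most names of its depth, and the other 5 members lie between -0.35 and 0.37.

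Some marker miRNAs, of myeloid and of other cells, were lower in replicate 2 along with miR-10b-5p. The lymphocyte marker miR-150-5p had 202 and 88 counts, a log2 ratio of -1.34 (adjusted p = 1.7e-13, Fisher's exact test). The stromal markers, summed, had a log2 ratio of -0.57, with miR-143-3p at -0.67 (adjusted p = 6.5e-28, Fisher's exact test) and miR-214-3p at -1.49 from 38 and 15 counts (adjusted p = 0.0014, Fisher's exact test). The other 3 stromal markers did not pass that test, with miR-199a-3p at -0.24, miR-145a-5p at -0.27 and miR-199a-5p at 0.29, and most of the stromal counts were those of miR-143-3p. The sum of the miR-126a arms had a log2 ratio of -0.44, with miR-126a-5p called at -0.46 and miR-126a-3p not called at -0.37. The epithelial markers, with a log2 ratio of 0.12 for their sum, were called in both directions: miR-141-3p at -0.46 and miR-200c-3p at -0.53 were lower in replicate 2, and miR-200b-3p at 0.59 was higher. Of the 6 myeloid markers all were called, and 5 were lower in replicate 2: miR-155-5p at -1.16, miR-142a-3p at -0.73, miR-223-3p at -0.43, miR-142a-5p at -0.34 and miR-511-3p at -0.34. The exception was miR-146a-5p at 1.11, which raised the sum of the list. Over all names 44.2% were called, and 62.9% of those with at least 50 counts summed, which all 6 of these markers had, so their number called says little about the markers. The part of these cells in the difference of miR-10b-5p was not tested.

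The miRNAs closest in level to each member over both libraries were found by the Euclidean distance of log2(RpM + 0.1), which with 2 libraries reflects level and the single ratio between them. For miR-10a-5p these were miR-142a-5p, the 5p arm of a hairpin specific to blood cells, at 37031 and 29252 RpM (distance 0.18), and let-7f-5p at 25455 and 28509 RpM (distance 0.38). For miR-196b-5p they were miR-32-5p (31.1 and 30.6 RpM) and miR-1933-3p (29.5 and 27.8 RpM). For miR-10b-5p they were miR-18a-3p (31.1 and 17.0 RpM) and miR-467c-5p (29.8 and 15.3 RpM). For miR-10a-3p they were miR-29c-5p (22.8 and 18.8 RpM) and let-7b-3p (24.4 and 17.2 RpM), like it the minor arms of their hairpins.

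The miR-99 and miR-100 miRNAs are counted as relatives of miR-10 by their sequence, but their seed differs, and none lies in a Hox cluster. The most abundant of them is shown with its seed in capitals, to be set beside miR-10a-5p above.
miR-99b-5p: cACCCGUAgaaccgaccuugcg

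All 3 relatives were called higher in replicate 2, as were 81 of all 588 names tested and 122 with TMM, while miR-10a-5p was called lower. miR-99b-5p stood at 8350 and 14228 RpM, a log2 ratio of 0.77 (adjusted p too small to represent, Fisher's exact test). miR-99a-5p stood at 533 and 705 RpM, a log2 ratio of 0.40 (adjusted p = 9.6e-41, Fisher's exact test), and miR-100-5p at 95.6 and 213 RpM, a log2 ratio of 1.16 (adjusted p = 1.3e-76, Fisher's exact test). Together they held 0.898% and 1.51% of the counts, below miR-10a-5p in both libraries.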

How the data were processed

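After rRNA depletion the authors made small RNA libraries with an Illumina kit. Trimmed reads were aligned by Bowtie to mouse miRBase hairpins, and the authors deposited counts for each mature miRNA name with no normalization. The miRBase release, the mismatches allowed and the rule for reads with several matches are not given in the sources used here, and they can move counts between near-identical names. Ligation and PCR favour some sequences, so levels compared between miRNAs are levels of counts, not of molecules. DESeq2 is named in the submitters' processing notes without a role.

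Counts were divided by the library totals (7322969 and 8094314), following the study's methods. Exact binomial and Fisher's exact tests (scipy 1.17.1) with Benjamini-Hochberg adjustment at 0.05 and 95% Wilson intervals were used. With 1 condition no quasi-likelihood test was possible. TMM (edgeR 4.0.16) and DESeq2 1.42.0 size factors, in R 4.3.3, pooled reads, other totals, other count minimums, thinning and each library alone were the alternatives. A chi-square test of the libraries gave 291.7 per degree of freedom, so they are not one library deposited under both labels. The tests compare read counts, so no spread between replicates enters their p-values. The libraries are labelled as biological replicates, but nothing says that they came from separate mice. The SD of both libraries may therefore not include the spread between mice.

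The members, lists and tests were chosen with earlier results of these data known. Named besides the members are their partner arms, miR-99 and miR-100, the 2 nearest miRNAs of each member with at least 100 counts, miR-21a-5p and the most abundant marker of each list. The other markers, miR-30a-5p, miR-30e-5p, let-7a-5p and the hairpins miR-146a, miR-26a and miR-142a were chosen after seeing the data. Positions of hairpins come from GENCODE M21, sequences from RefSeq, which matched 1623 of the 1915 names. Gm44463, a further annotated miRNA gene in HoxD, was not analysed here.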

Additional observations from a re-analysis of the deposited data

How the results depend on the processing

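The RpM of the 6 members with counts moved by less than 1 SD with TMM or DESeq2 scaling, a minimum of 10 counts in the total and pooled reads. With 2 libraries, pooling and each library alone cannot move a mean by more than that. Leaving miR-21a-5p out of the total raised every level by construction, to 41634 RpM for HoxB, 42.2 for HoxA and 1.495 for HoxC, and counting miR-196a-5p to HoxC gave 1.88. The order of the lower members changed with the library: the log2 ratio of miR-196b-5p to miR-10b-5p ran from -0.18 to 0.91 and that of miR-10b-5p to miR-10a-3p from -0.26 to 0.61 with each library alone. The ratio of miR-10a-5p to miR-10b-5p was 904 in replicate 1 alone, 1772 in replicate 2 alone and 1184 with pooled reads. The percent of hairpins more one-sided than miR-10a was 8.52 with at least 100 counts and 7.96 with at least 1000, and 8.04 with locus-numbered arms summed, an alternative chosen after seeing the data, but 37.9 with no minimum, where hairpins of few counts have all of them on 1 arm. The share of names called ran from 24.4% of the 1013 tested with no minimum to 62.9% of the 383 with at least 50 counts summed. In number, from 241 to 260 names differed between the libraries over all settings. Among the members, miR-10a-5p and miR-10b-5p were called in each, miR-10a-3p passed with at least 50 counts summed (adjusted p = 0.049, Fisher's exact test, against 0.068 to 0.38 otherwise), where fewer names were tested, and the log2 ratio of miR-196b-5p was 0.0094 with TMM and 0.024 with DESeq2 size factors, by construction, since each moves all names by the same amount. No paired analysis was possible because there was 1 condition only. Depth limits miR-615-3p, miR-196a-5p and the minor arms other than miR-10a-3p, which rest on 10 counts or fewer per library.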

Other observations

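The seed of miR-196, AGGUAGU, also occurs in the let-7 family, shifted by 1 base. Of the 9 names of let-7 5p arms and miR-98-5p that have a sequence, 8 hold these letters, all at bases 3 to 9, and over all names with a sequence 13 of 1623 hold them (0.801%; the strand of the mature miRNA only was searched). Together the 8 names held 6.46% ± 0.0793 (SD, n = 2) of the counts, against 30.8 RpM for miR-196b-5p. The match is a description of the letters, and no effect on targets was measured.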
